A study of Mus musculus with 15 samples.

Results

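Oncostatin M and 7 further inflammatory cytokine genes were examined in LSK cells, the Lin- Sca-1+ c-Kit+ compartment of the marrow, in which stem cells and multipotent progenitors are found. The 8 genes were taken by name: Osm, Il6, Il1b, Tnf, Cxcl2, Ccl3, Ccl4 and Tgfb1. They are 8 of the 45232 gene IDs that the authors counted, and all 8 are among the 17834 that passed the filter on low counts and were tested. CD45.2+ LSK cells of C57BL/6 mice were sequenced in 15 libraries, 3 in each of 5 groups.

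In 4 groups, the cells came from recipients of JAK2/IDH2-mutant marrow, which carried conditional Jak2 V617F and Idh2 R140Q alleles switched on by the interferon-inducible Mx1-Cre, so recombination was not limited to LSK cells. By the study's methods, mutant CD45.2 marrow was mixed with CD45.1 WT marrow and given to lethally irradiated hosts, so the marrow around the sorted cells also held CD45.1 cells. These recipients received vehicle, AG221 (an inhibitor of mutant IDH2, 40 mg/kg), ruxolitinib (a JAK1/2 inhibitor, 60 mg/kg) or both drugs (combined therapy). Doses were given by gavage 2 times a day for 21 to 28 days, with the last about 1.5 hours before sacrifice. The fifth group was WT, and the labels do not say whether these cells also came from transplant recipients or were gavaged. Neither the labels nor the methods say whether a library is 1 mouse or a pool. The p-values here rest on the spread between the 3 libraries of a group, estimated over all 5 groups in 1 fit. This spread may be partly technical.

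The 8 genes encode secreted proteins of several families. OSM and IL-6 both signal through the shared receptor chain gp130 and JAK kinases to STAT3. IL-1β and TNF act through separate receptors that converge on NF-κB, and NF-κB in turn is a known activator of the genes for IL-6, TNF, IL-1β and many chemokines. CXCL2 is a ligand of CXCR2 and draws neutrophils, while CCL3 and CCL4 (macrophage inflammatory proteins) act through CC chemokine receptors, CCL3 through CCR1 among them, and CCL3 is known to restrain the cycling of stem cells. TGF-β1 is secreted in a latent form and is a known inducer of quiescence in stem cells. In myeloproliferative neoplasms, inflammatory cytokines are made both by mutant cells and by their neighbours.

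The regulatory sequences of these genes are shown first, since most of the 8 belong to classes of transcripts known to be made in bursts and removed quickly. RefSeq promoter windows of GRCm38.p6, 250 bases before to 50 bases after the start site, were matched by symbol for 6 of the 8 genes; Osm and Ccl4 had no match. Both strands were searched for STAT (TTCNNNGAA), AP-1 (TGANTCA), CRE (TGACGTCA), NF-kB and SRF motifs, and the plus strand for the TATA box (TATAAA). The 4 windows printed belong to the gene with the largest changes (Cxcl2), to Tnf, to the gene with a course of its own under treatment (Il6) and to Tgfb1. Tgfb1 had no call in the 10 comparisons of the main fit. Motif matches are in capitals.
Cxcl2, chr5:90903649-90903948, plus strand: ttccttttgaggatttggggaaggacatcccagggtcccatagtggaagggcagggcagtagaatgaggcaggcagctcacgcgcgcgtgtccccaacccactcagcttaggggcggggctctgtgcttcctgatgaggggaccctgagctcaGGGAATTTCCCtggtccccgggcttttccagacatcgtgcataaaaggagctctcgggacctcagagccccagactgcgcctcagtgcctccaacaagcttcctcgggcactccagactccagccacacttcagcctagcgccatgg
Tnf, chr17:35201958-35202257, minus strand: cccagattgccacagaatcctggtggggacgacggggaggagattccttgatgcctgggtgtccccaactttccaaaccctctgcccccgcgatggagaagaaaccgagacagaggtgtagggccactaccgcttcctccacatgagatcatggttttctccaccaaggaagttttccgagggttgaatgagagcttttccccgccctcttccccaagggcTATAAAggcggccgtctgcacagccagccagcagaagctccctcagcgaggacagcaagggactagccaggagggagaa
Il6, chr5:30012864-30013163, plus strand: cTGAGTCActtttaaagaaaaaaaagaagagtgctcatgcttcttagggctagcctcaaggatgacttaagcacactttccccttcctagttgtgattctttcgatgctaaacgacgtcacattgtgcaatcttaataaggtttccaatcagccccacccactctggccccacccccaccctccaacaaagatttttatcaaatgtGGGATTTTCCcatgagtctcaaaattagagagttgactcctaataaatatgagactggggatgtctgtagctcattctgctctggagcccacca
Tgfb1, chr7:25686752-25687051, plus strand: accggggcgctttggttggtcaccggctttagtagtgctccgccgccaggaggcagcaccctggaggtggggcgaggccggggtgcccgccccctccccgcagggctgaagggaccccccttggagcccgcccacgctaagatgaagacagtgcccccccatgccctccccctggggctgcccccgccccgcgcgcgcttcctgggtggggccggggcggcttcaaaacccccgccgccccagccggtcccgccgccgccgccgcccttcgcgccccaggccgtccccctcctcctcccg
The Cxcl2 window held NF-kB matches at position -97 on the plus strand and, overlapping it, at -96 on the minus strand, both within the capitals. The Il6 window held an NF-kB match at -44 and an AP-1 match at -249. The Tnf window held a TATA box at -29, and so did the Il1b window at -31. None of the 6 motifs was found in the windows of Tgfb1 and Ccl3, and the Tgfb1 window had a GC content of 77%, against 44% for Il6 and 60.7% for Cxcl2. Over all 32841 promoter windows of the same length, an NF-kB match stood in 4.51%, an AP-1 match in 7.81%, a TATA box in 8.32%, a STAT match in 8.3%, a CRE in 1.79% and an SRF match in 1.63%. A match is a description of letters and not of a bound site.

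Cytokine transcripts often carry AU-rich elements, repeats of the pentamer ATTTA in the 3′ UTR through which proteins such as tristetraprolin (Zfp36) bring about decay. The stretch of 30 bases with the most pentamers is given for 4 genes, pentamers in capitals.
Tnf, from base 437 of the 3′ UTR: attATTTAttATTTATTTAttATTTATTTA
Cxcl2, from base 883: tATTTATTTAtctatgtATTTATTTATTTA
Il1b, from base 192: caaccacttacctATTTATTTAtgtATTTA
Tgfb1, from base 48: ccccgcccgcagcgcccggggctgtATTTA
The Tnf and Cxcl2 stretches each held 5 pentamers, several of them sharing bases, the Il1b stretch held 3 and the Tgfb1 stretch held 1. Over the whole 3′ UTR, Cxcl2 had 11 pentamers in 1494 bases and Il6 had 10 in 1668. Tnf had 8 in 764 bases, Osm 6 in 1017, Ccl3 5 in 409, Il1b 4 in 459 and Ccl4 2 in 302. As many pentamers as in Cxcl2 were found in 5.47% of the 21037 genes with a 3′ UTR in GENCODE, as many as in Il6 in 6.85% and as many as in Tnf in 10.5%, and the shares were 16.9% for Osm, 21.6% for Ccl3, 28% for Il1b and 47% for Ccl4. Tgfb1 had 1 pentamer in a 3′ UTR of 135 bases, and 65.2% of genes had at least 1. Per kilobase of 3′ UTR, the 8 genes ran from 5.9 (Osm) to 12.2 pentamers (Ccl3), densities reached by 4.96% and 0.646% of genes, and Tgfb1 at 7.41 was beside Cxcl2 at 7.36.

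Total counts ran from 18836625 to 32174287 per library, with a median of 25545779, so that 3 counts, the limit that a count of 0 allows, equalled 0.0957 to 0.156 CPM (counts relative to the TMM-scaled library total); such limits and intervals cover counting error only. Replicates of vehicle, AG221 and ruxolitinib have names with the letter A, those of combined therapy and WT have names with B, and no source used here explains the letter. Any comparison of the first 3 groups with the other 2 therefore cannot be told apart from the letter. The summed level of 18 early response genes (immediate early transcription factors and other genes induced within minutes) ran from 3291 to 13520 CPM in the 9 libraries named A and from 676 to 1253 CPM in the 6 named B. Libraries AG221 A8, AG221 A10 and ruxolitinib A16 stood apart by a low level of GC-rich genes, with median log2 deviations of -1.37, -1.03 and -0.51 over 219 genes, while the other 12 were at -0.19 or higher. The summed count of 4 Y-linked genes was 0 to 4 in the WT libraries and 5457 to 15486 in all others. Any comparison with WT therefore also cannot be told apart from this difference, which is of the kind seen between female and male donors. Of the 11 LSK and stem cell markers, none was under 1 CPM, and their sum was 4267 to 4671 CPM in WT and 2443 to 3810 CPM in the 12 mutant libraries.

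Among the chemokines, Cxcl2 (ENSMUSG00000058427, chromosome 5 of GRCm38, 90903871 to 90905938) covered the widest range. It was at 92.0, 59.1 and 43.0 CPM in the vehicle libraries, at 81.8, 43.2 and 60.8 CPM with AG221 and at 36.6, 11.7 and 22.4 CPM with ruxolitinib. In the combined libraries it was at 0.0521, 0.380 and 0.277 CPM, from 1, 11 and 6 counts, and in WT at 0.109, 0.302 and 0.0335 CPM, from 3, 9 and 1 counts. Cxcl2 was thus abundant in each library named A and at or near the counting limit in each library named B, with no overlap. The 5392 counts with vehicle against 13 in WT gave a ratio of 435 after scaling (95% exact Poisson interval 254 to 817). In the fit over all genes the log2 fold change of vehicle against WT was 8.72 (SE 0.70, adjusted p = 7.31e-06; quasi-likelihood test in edgeR, Benjamini-Hochberg adjusted over all tested genes, as for every adjusted p that follows). Combined therapy against vehicle gave -7.98 (SE 0.67, adjusted p = 2.71e-05), and the ratio of vehicle to combined counts was 251 (interval 159 to 424). With ruxolitinib alone all 3 libraries lay below all vehicle libraries, at a log2 fold change of -1.46 (SE 0.47) that was not called (adjusted p = 0.868). With AG221 alone the value was -0.06 (SE 0.46, adjusted p = 0.946), and under upper quartile normalization it turned to 0.13. The combined and WT groups overlapped (ratio 1.73, interval 0.803 to 3.85). Since 5.84% of the 50-base stretches of Cxcl2 also occur in Cxcl3, which did not pass the filter, a small part of its reads may match both genes. How the counting treated such reads was not examined.

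Ccl4 and Ccl3, neighbouring genes on chromosome 11 (83662584 to 83664683 and 83647844 to 83649355 of GRCm38; ENSMUSG00000018930 and ENSMUSG00000000982), were present in WT cells and changed less. Ccl4 was at 154, 89.9 and 74.0 CPM with vehicle, 123, 140 and 141 CPM with AG221 and 101, 69.0 and 123 CPM with ruxolitinib. It was at 19.3, 5.84 and 13.3 CPM with combined therapy and at 22.7, 20.9 and 21.5 CPM in WT. All combined libraries therefore lay below all WT libraries, but this difference was not called (-0.77, SE 0.36, adjusted p = 0.198). Ccl4 was higher in vehicle-treated than in WT cells (log2 fold change 2.28, SE 0.37, adjusted p = 0.00191) and lower with combined therapy than with vehicle (-3.06, SE 0.38, adjusted p = 0.000733). Ccl3 was at 81.6, 43.5 and 36.9 CPM with vehicle, 72.6, 95.4 and 105 CPM with AG221 and 77.5, 40.6 and 89.9 CPM with ruxolitinib. It was at 19.7, 2.52 and 18.6 CPM with combined therapy and at 30.2, 24.4 and 24.2 CPM in WT. The vehicle libraries did not overlap WT, yet the difference of 1.04 (SE 0.54) was not called (adjusted p = 0.147), unless only those groups were fitted (adjusted p = 0.0351). Ccl3 fell by 2.0 on the log2 scale with combined therapy against vehicle (SE 0.56, adjusted p = 0.0319). This call was lost without vehicle A1 (-1.57, adjusted p = 0.140), without combined B24 (adjusted p = 0.0531) and in a fit of only the 2 groups (adjusted p = 0.103). Combined B25 held the lowest level of Ccl3, Ccl4 and Tnf of all 15 libraries.

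Tnf (ENSMUSG00000024401, chromosome 17, 35199381 to 35202007) encodes the ligand of the TNF receptors TNFR1 and TNFR2. It was at 46.1, 34.0 and 28.4 CPM with vehicle, 55.2, 33.6 and 43.4 CPM with AG221 and 24.9, 19.3 and 26 CPM with ruxolitinib. With combined therapy it was at 3.75, 1.31 and 3.74 CPM, and in WT at 2.86, 2.31 and 3.45 CPM. The groups named A and B again did not overlap, ruxolitinib lay below vehicle in all 3 libraries, and combined therapy overlapped WT. Vehicle exceeded WT by 3.65 (SE 0.37, adjusted p = 6.3e-05) and combined therapy lay below vehicle by a log2 fold change of -3.63 (SE 0.37, adjusted p = 0.000141). Ruxolitinib against vehicle was at -0.63 (SE 0.33, adjusted p = 1) and AG221 at 0.29 (SE 0.33, adjusted p = 0.608). Combined therapy against WT was at 0.01 (SE 0.35, adjusted p = 0.984).

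Osm (ENSMUSG00000058755, chromosome 11, 4236420 to 4241026), whose product signals through gp130 paired with the OSM receptor, was at 142, 128 and 161 CPM with vehicle, 55.6, 118 and 85.8 CPM with AG221 and 113, 56.4 and 84.8 CPM with ruxolitinib. It was at 12.7, 16.7 and 13.2 CPM with combined therapy and at 9.05, 9.75 and 10.3 CPM in WT. Each monotherapy group lay below the vehicle libraries and above the combined libraries without overlap, and the lowest library of each was 1 of those low in GC-rich genes (AG221 A8 and ruxolitinib A16). Against vehicle, the log2 fold change was -0.73 with AG221 (SE 0.26, adjusted p = 0.121) and -0.76 with ruxolitinib (SE 0.26, adjusted p = 0.926), neither of which was called, and -3.34 with combined therapy (SE 0.29, adjusted p = 3.19e-05). Without AG221 A9, leaving A8 and A10, both low in GC-rich genes, the AG221 value was -1.03 and was called (adjusted p = 0.0127). In that fit 4672 genes in all were called, beside 176 with all libraries. Combined therapy lay above WT in all 3 libraries, but the difference of 0.55 (SE 0.27) was not called (adjusted p = 0.224).

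Il6 (ENSMUSG00000025746, chromosome 5, 30013114 to 30019981) followed another course. It was at 4.10, 5.93 and 5.44 CPM with vehicle, 2.14, 1.64 and 1.6 CPM with AG221 and 1.27, 1.49 and 1.16 CPM with ruxolitinib. It was at 1.67, 2.62 and 2.22 CPM with combined therapy and at 0.869, 1.64 and 0.736 CPM in WT. All treated libraries lay below all vehicle libraries, the AG221 and combined groups overlapped, and ruxolitinib lay below combined. Within the letter A, Il6 thus separated vehicle from both monotherapies, as Osm did, but its combined libraries did not lie below those of the monotherapies. The log2 fold change against vehicle was -1.52 with AG221 (SE 0.32, adjusted p = 0.0458), -1.98 with ruxolitinib (SE 0.32, adjusted p = 0.0985) and -1.24 with combined therapy (SE 0.31, adjusted p = 0.0193). The AG221 call was lost without any 1 of vehicle A1, A3 and A4 and AG221 A8 and A10 (adjusted p = 0.0842 to 0.176), without a filter on low counts (adjusted p = 0.0611), without the 3 libraries low in GC-rich genes (adjusted p = 0.395) and in a fit of the 2 groups alone (adjusted p = 0.297). Ruxolitinib against vehicle was called by DESeq2 (-1.96, adjusted p = 1.38e-05). The combined call was lost without vehicle A3 (adjusted p = 0.0625) or combined B24 (adjusted p = 0.0954). Vehicle exceeded WT by 2.24 (SE 0.32, adjusted p = 0.000939). With 93 to 433 counts summed over a group, Il6 was among the thinnest of the 8 genes.

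Il1b (ENSMUSG00000027398, chromosome 2, 129364570 to 129371139) encodes IL-1β, which is made as a precursor and cut by caspase-1. It was at 6.58, 4.72 and 4.22 CPM with vehicle, 6.54, 3.33 and 8.65 CPM with AG221 and 6.59, 1.32 and 4.40 CPM with ruxolitinib. It was at 2.76, 2.97 and 2.68 CPM with combined therapy and at 0.362, 0.335 and 0.435 CPM in WT. Every mutant library, treated or not, lay above every WT library. Vehicle exceeded WT by 3.75 (SE 0.53, adjusted p = 0.000808). Combined therapy lay below vehicle in all 3 libraries, at -0.88 (SE 0.46), but this was not called (adjusted p = 0.242). It stayed above WT by 2.87 (SE 0.52, adjusted p = 0.0137), a comparison within the letter B but across the difference in Y-linked genes. This call was lost without combined B25, WT B28 or WT B30 (adjusted p = 0.0533 to 0.0643), at log2 fold changes of 2.80 to 2.86. WT had 33 counts of Il1b in all. An antisense gene, Il1bos, covers 1.31% of its exons, and the strand setting of the counting is not stated.

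Tgfb1 (ENSMUSG00000002603, chromosome 7, 25687002 to 25705077) was present throughout and was called in none of the 10 comparisons of the main fit. It was at 80.1, 142 and 193 CPM with vehicle, 15.6, 112 and 16.6 CPM with AG221 and 167, 42.7 and 135 CPM with ruxolitinib. It was at 139, 147 and 156 CPM with combined therapy and at 106, 76.9 and 118 CPM in WT. The 3 lowest libraries of all 15 were AG221 A8, AG221 A10 and ruxolitinib A16, the same 3 that stood apart in GC-rich genes, while AG221 A9 lay within the range of WT. The exons of Tgfb1 have a GC content of 52.5%, below the 60% used to define the GC-rich genes. The difference of AG221 from vehicle was -1.52 (SE 0.66, adjusted p = 0.176). It was -3.11 and called without AG221 A9 (adjusted p = 0.00116), where 4672 genes in all were called, so 1 library decided it. The part of the GC-related difference in this value was not tested. Combined therapy against vehicle was at 0.09 (SE 0.65, adjusted p = 0.949), and vehicle against WT at 0.46 (SE 0.65, adjusted p = 0.603).

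**Figure D1:**
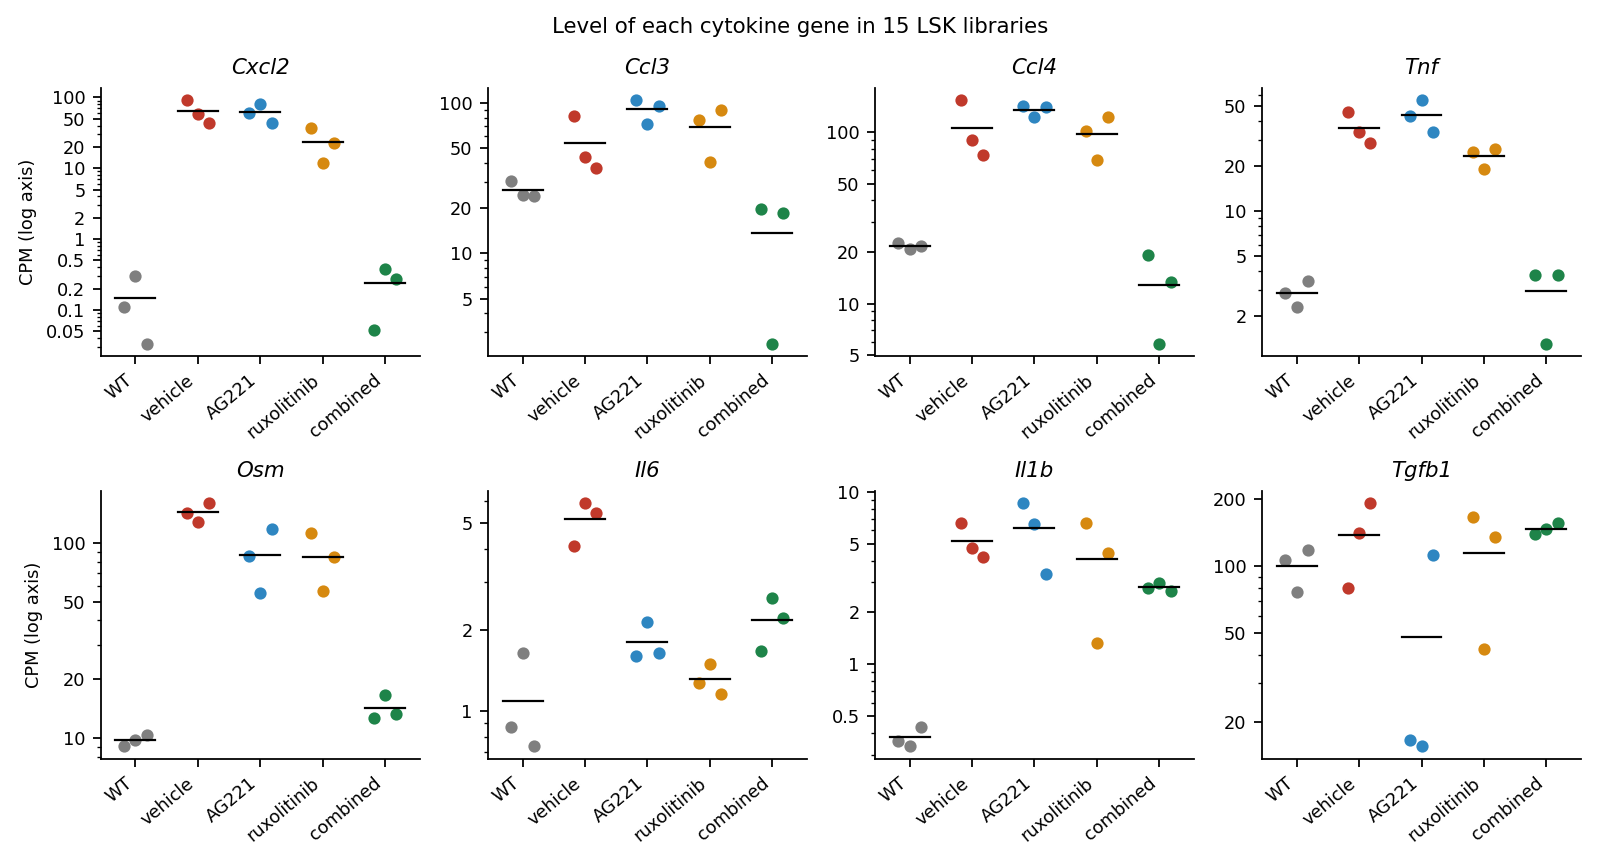
Level of each cytokine gene (CPM, log axes with ranges of their own) in the 15 libraries, 1 point per library in the order of the replicate names within a group, with a bar at the group mean (n = 3). Cxcl2, Ccl3, Ccl4, Tnf and Osm are lower in all WT and combined libraries than in all vehicle, AG221 and ruxolitinib libraries, Il6 is highest with vehicle, Il1b is lowest in WT, and Tgfb1 has low points in AG221 and ruxolitinib.

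The levels of different genes were compared per kilobase of exon, with the exons of all annotated transcripts of a gene merged. A gene read mainly from a shorter transcript than this merged length, which was 5042 bases for Tgfb1, would be ranked too low. In vehicle-treated cells, Ccl4 was the most abundant of the 8, at a mean of 161 CPM per kb, followed by Ccl3 at 70.5, Osm at 63.2, Cxcl2 at 31.3, Tgfb1 at 27.4 and Tnf at 22.1 CPM per kb. Il1b and Il6 were lower, at 2.71 and 2.12 CPM per kb. In WT cells the order was Ccl3 (34.3 CPM per kb), Ccl4 (32.9), Tgfb1 (19.9), Osm (4.27), Tnf (1.75), Il6 (0.446), Il1b (0.198) and Cxcl2 (0.0715). Cxcl2 was thus behind only Ccl4, Ccl3 and Osm with vehicle and last in WT. After combined therapy Tgfb1 led at 29.2 CPM per kb, ahead of Ccl4 at 19.4, Ccl3 at 17.8 and Osm at 6.25, and Cxcl2 was last at 0.114.

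In the order of group means, Osm fell from vehicle through AG221 and ruxolitinib, which overlapped, to combined therapy and WT. The only neighbouring groups in that order that were called different were ruxolitinib and combined therapy (-2.58, adjusted p = 0.000426). Tnf and Cxcl2 also had their called step between ruxolitinib and combined therapy (adjusted p = 0.00058 and 0.000227), and Ccl4 had it between ruxolitinib and WT (adjusted p = 0.00242). For Il6 the called step was at the top, between vehicle and combined therapy, and for Il1b at the bottom, between combined therapy and WT. No neighbouring groups were called different for Ccl3 and Tgfb1. For AG221 against ruxolitinib no test was made.

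Comparing vehicle-treated mutant with WT cells is meant to show how disease alters these genes. The groups also differ in the letter and in Y-linked genes, and possibly in transplantation and gavage, from which disease cannot be told apart. Of the 8 genes, 6 were higher and none lower in vehicle-treated cells, beside 15.4% of all tested genes called higher and 33.3% called in either direction. The libraries did not overlap for 7 genes, all higher with vehicle, a pattern shown by 25.7% of tested genes. The median log2 fold change was 2.97 over the 8 genes and -0.09 over all tested genes. In these sorted bulk samples, a change in the share of cells that make a transcript and a change of its amount per cell cannot be told apart. The summed level of 10 monocyte and macrophage markers was 1077 to 1215 CPM with vehicle and 297 to 408 CPM in WT, with 2 of the 10 genes under 1 CPM, among them Fcgr1, and that of 10 mast cell and basophil markers was 863 to 1512 against 295 to 435 CPM. Sums were also higher with vehicle for T and NK cell markers (435 to 508 against 171 to 232 CPM, 6 of the 10 genes under 1 CPM, among them Cd3e and Trac; of the 8 tested, 2 were called higher, the median log2 fold change was -0.72, and Nkg7 at 426 and 174 CPM made up most of the sum), megakaryocyte markers (860.5 to 920 against 249 to 337 CPM) and erythroid markers (689 to 1317 against 270 to 405 CPM). They were lower for B and plasma cell markers (235 to 347 against 3581 to 11060 CPM) and dendritic cell markers (167 to 696 against 921 to 1057 CPM). The part of such cells in the cytokine values was not tested.

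Comparing each drug with vehicle asks what monotherapy does, within the libraries named A. With AG221, 1 of the 8 genes was called, Il6, lower, where 0.516% of all genes were called lower and 0.987% in either direction. These shares moved with single libraries, since 4672 genes were called without AG221 A9 and 0 to 27 by edgeR without any 1 of the other 5 libraries of these groups, where Il6 also lost its call. The libraries did not overlap for 2 genes, Osm and Il6, both lower, beside 7.27% of all genes. The median over the 8 genes was 0.10, and -0.01 over all tested genes. The neutrophil markers summed to 702 to 1059 CPM with AG221 and to 327 to 567 CPM with vehicle, and the monocyte and macrophage markers to 1852 to 2987 CPM with AG221, while the early response genes summed to 3291 to 4731 CPM with AG221 and 6470 to 13520 CPM with vehicle. None of the 10 neutrophil markers, 10 monocyte and macrophage markers and 18 early response genes was called by edgeR between these groups. In these lists, 2, 6 and 12 genes had an unadjusted p under 0.05 in edgeR, and DESeq2 called 1, 4 and 6. With ruxolitinib, none of the 8 was called by edgeR, where 0.0168% of all genes, or 3 of 17834, were called. In edgeR, 3 of the 8 (Osm, Il6 and Cxcl2) had an unadjusted p under 0.05, and DESeq2 called 1, Il6. The shares of all genes by these 2 measures are not given. By edgeR's p over all tested genes, Il6 had rank 5, Cxcl2 159, Osm 242 and Tnf 1196. The libraries lay below vehicle without overlap for 4 genes, Osm, Il6, Tnf and Cxcl2, beside 4.51% of all tested genes. The median of the 8 was -0.48, and 0.01 over all genes.

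Comparing combined therapy with vehicle asks what both drugs do together. Of the 8 genes, 6 were lower and none higher, where 4.21% of all genes were called lower and 12.5% in either direction. For 7 genes the combined libraries lay below the vehicle libraries without overlap, beside 15.2% of all genes, and the median was -2.53, against 0.04 over all genes. Between these groups the letter of the replicate names also changes, and of the 18 early response genes 12 were called lower and none higher. The 5 cytokine genes whose A libraries all lay above their B libraries were Osm, Tnf, Cxcl2, Ccl3 and Ccl4, a pattern that 4.43% of all tested genes and 11 of the 18 early response genes also had. The part of the letter, or of the early response level, in the fall of these 5 genes cannot be told apart from combined therapy. The monocyte and macrophage markers summed to 534 to 1146 CPM with combined therapy, of which none was called against vehicle by edgeR (0 at an unadjusted p under 0.05, and 0 by DESeq2). Of 9 tested mast cell and basophil markers, 3 were called lower with combined therapy and none higher (5 called by DESeq2, median -0.89), and their sums were 694 to 951 CPM beside 863 to 1512 CPM with vehicle. The part of such cells was not tested.

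**Figure D2:**
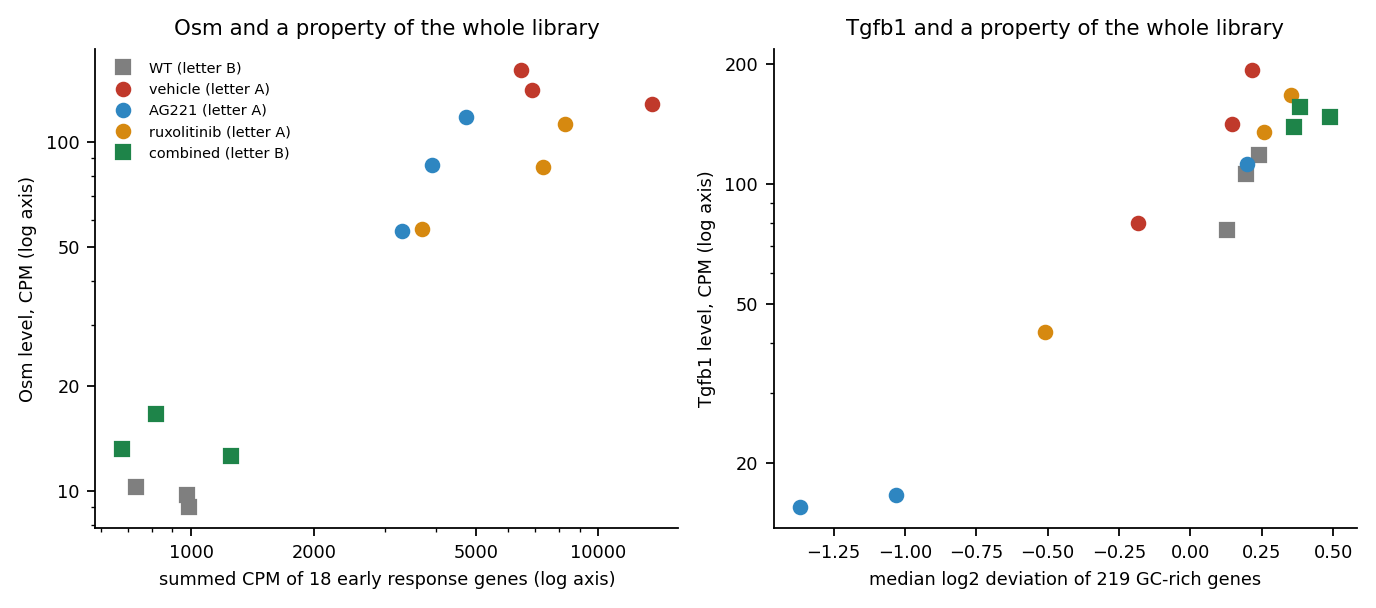
Left, the Osm level (CPM, log axis) against the summed level of 18 early response genes (CPM, log axis); right, the Tgfb1 level (CPM, log axis) against the median log2 deviation of 219 GC-rich genes, 1 point per library, circles for names with A and squares for names with B. The 6 libraries named B lie at 676 to 1253 CPM of early response genes and at 9.05 to 16.7 CPM of Osm, and the 3 libraries with the lowest GC-rich median are the 3 lowest in Tgfb1.

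Against the monotherapies, combined therapy was lower for 5 of the 8 genes in each case, Osm, Tnf, Cxcl2, Ccl3 and Ccl4. The background of genes called lower was 14.3% against AG221 and 3.94% against ruxolitinib (33.2% and 12.4% in either direction). Tnf was at -3.92 against AG221 (SE 0.37) and -3.01 against ruxolitinib (SE 0.36), and Osm at -2.60 and -2.58 (SE 0.28 each). Il6 was at 0.28 (SE 0.32) and 0.74 (SE 0.32) and was not called in either (adjusted p = 0.517 and 0.166). Against AG221, DESeq2 called 7 of the 8 genes, adding Il1b, lower (-1.19, adjusted p = 0.0413), and Tgfb1, higher (1.59, adjusted p = 0.033). The share of all genes that DESeq2 called is not given, and the background above is that of edgeR. The Ccl3 call against AG221 was lost without the 3 libraries low in GC-rich genes (adjusted p = 0.0846), and that against ruxolitinib in a fit of those 2 groups (adjusted p = 0.0737). These 2 comparisons share the combined libraries and again cross the letters. Markers of other cells differed as well, not all in the same direction. Against AG221, 8 of 10 monocyte and macrophage markers (median -1.27) and 4 of 10 neutrophil markers (median -2.15) were called lower and none higher, with neutrophil sums of 247 to 432 CPM with combined therapy. Of the B and plasma cell, dendritic cell and megakaryocyte markers, 2 in each list were called higher and none lower. Erythroid markers had 3 called lower and 1 higher, and mast cell and basophil markers 2 lower and 1 higher. Of the T and NK cell markers 1 was called lower. Against ruxolitinib, 3 of the 10 monocyte and macrophage markers were called lower (median -0.59), with sums of 1014 to 1823 CPM with ruxolitinib, and 4 of 10 erythroid markers were called lower (median -1.57). DESeq2 called 1 erythroid marker, and 4 had no adjusted p there. None of the 10 neutrophil markers was called by edgeR (2 by DESeq2, median -1.70). In edgeR, 1 mast cell and basophil and 1 T and NK cell marker were called lower. Of the dendritic cell and megakaryocyte markers, 1 in each list was called higher. The part of such cells in the cytokine values was not tested.

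Against WT, 6 of the 8 genes were higher with AG221 (Osm, Il1b, Tnf, Cxcl2, Ccl3 and Ccl4) and 5 with ruxolitinib (the same without Ccl3), where 22.2% and 16.1% of all genes were called higher and 50.7% and 32.3% in either direction. Il6 was not called in either comparison (0.72, adjusted p = 0.0756, and 0.26, adjusted p = 0.541). Ccl3 was at 1.79 with AG221 (adjusted p = 0.0165), a call lost without WT B30 (adjusted p = 0.0554). With ruxolitinib it was at 1.40 (adjusted p = 0.0626), with all 3 libraries above WT. The ruxolitinib value was called by DESeq2 (adjusted p = 0.0303), without a filter on low counts (adjusted p = 0.0231) and with only the groups compared (adjusted p = 0.0144). With combined therapy 1 gene was called against WT, Il1b, beside 1.63% of all genes higher and 3.25% in either direction, and DESeq2 also called Il6 (1.03, adjusted p = 0.0411). The libraries of combined therapy lay above WT without overlap for 4 genes (Osm, Il6, Il1b and Tgfb1, beside 22.4% of all genes) and below for 2 (Ccl3 and Ccl4, beside 19.2%). Of the early response genes none of the 18 was called by edgeR between these groups (0 at an unadjusted p under 0.05, and 0 by DESeq2).

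**Figure D3:**
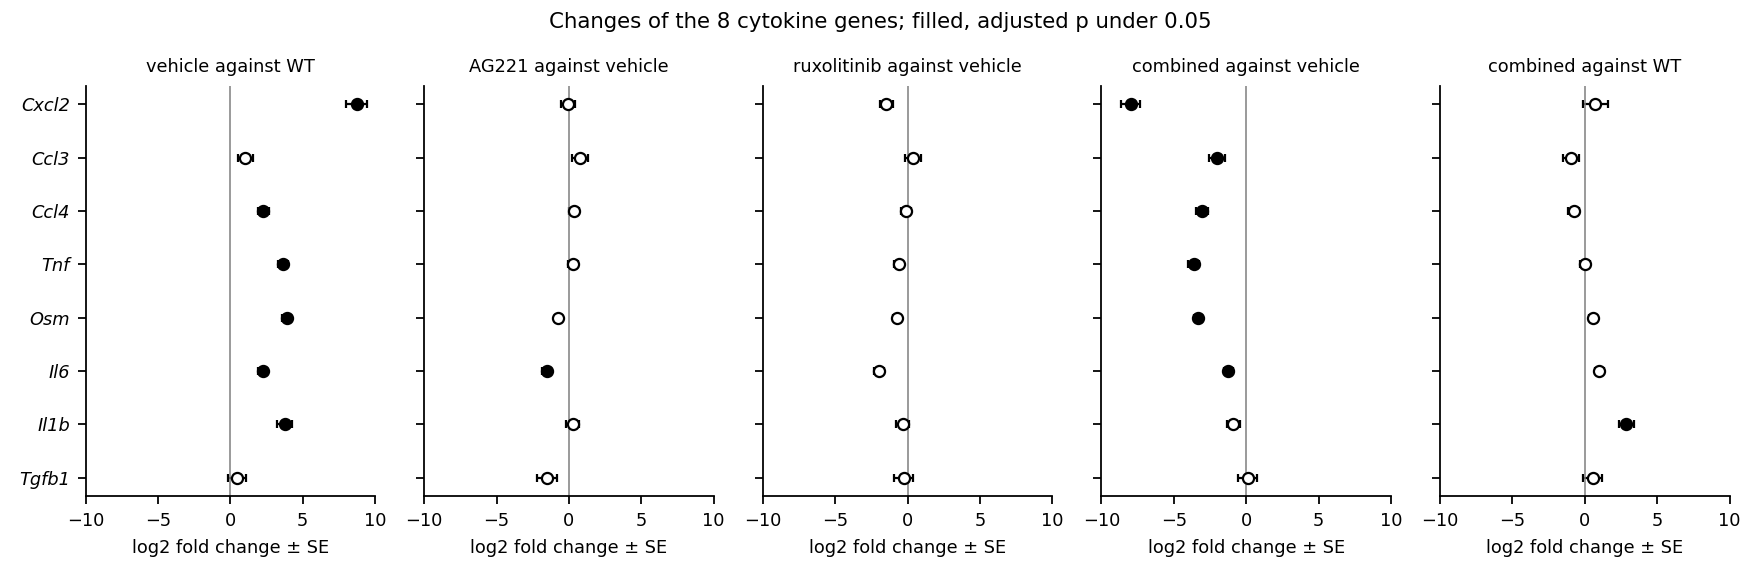
Log2 fold change and SE of each cytokine gene in 5 comparisons of 3 against 3 libraries, from the fit of all 15 libraries. Points are filled where the adjusted p was under 0.05 in edgeR's quasi-likelihood test. Against WT 6 genes are filled with vehicle and 1, Il1b, with combined therapy, and against vehicle 1 is filled with AG221, none with ruxolitinib and 6 with combined therapy.

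If both drugs acted independently on the log scale, the change under combined therapy would equal the sum of the monotherapy changes, and the departure from that sum was tested in the same fit. Of the 8 genes, 5 were called below the sum and 1 above it, where 2.82% of all genes were called below, 5.6% above and 8.42% in either direction. Cxcl2 departed by -6.46 (SE 0.79, adjusted p = 0.00368), from a sum of -1.52 to -7.98 under combined therapy. Tnf departed by -3.29 (SE 0.48, adjusted p = 0.00798) and Ccl4 by -3.28 (SE 0.51, adjusted p = 0.00999). Osm departed by -1.84 (SE 0.38, adjusted p = 0.0291) and Ccl3 by -3.11 (SE 0.77, adjusted p = 0.0382). Il6 departed the other way, by 2.26 (SE 0.45, adjusted p = 0.0272), since its monotherapy changes summed to -3.50 and combined therapy gave -1.24. Il1b and Tgfb1 were at -0.80 (SE 0.64, adjusted p = 0.408) and 1.88 (SE 0.93, adjusted p = 0.178), and without AG221 A9 the Tgfb1 departure was 3.47 and was called (adjusted p = 0.00257), where 6087 genes in all were called. Without AG221 A8, AG221 A10 and ruxolitinib A16, 2 departures of the 8 were still called, those of Osm and Cxcl2, and with 1 library left out in turn 3 to 7 were called. The calls of Osm, Il6 and Ccl3 were those lost without vehicle A3 or A4, AG221 A10, ruxolitinib A17 or combined B24 or B25, at log2 departures of -1.97 to -1.76 for Osm, 2.10 to 2.42 for Il6 and -3.47 to -2.60 for Ccl3. Il6 and Ccl3 also lost the call without AG221 A8, and Ccl3 without ruxolitinib A14 or A16. The monotherapies and the combined group also differ in the letter, so the departure cannot be told apart from it.

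**Figure D4:**
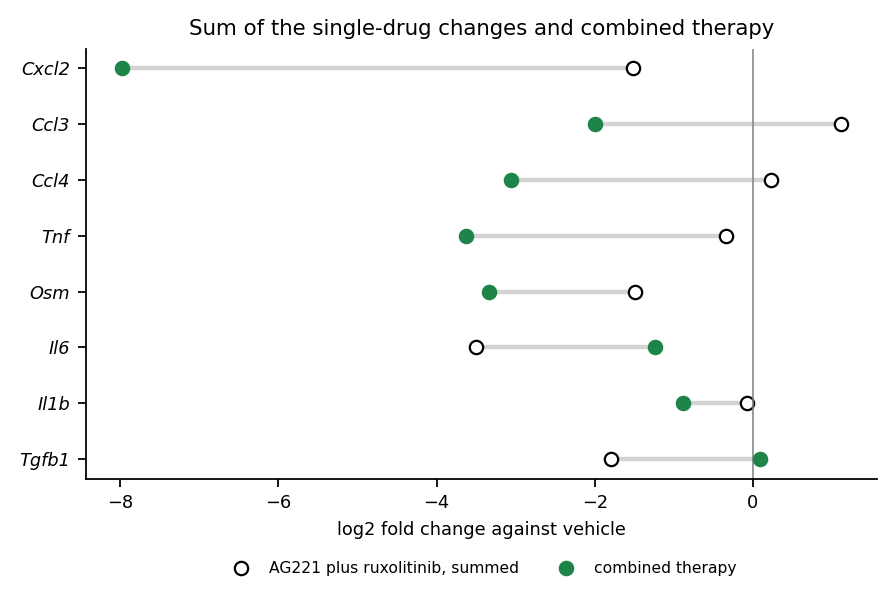
Log2 fold change against vehicle for each cytokine gene, as the sum of the AG221 and ruxolitinib changes (open) and under combined therapy (filled), each from the fit of all 15 libraries. Combined therapy lies below the sum for Cxcl2, Ccl3, Ccl4, Tnf, Osm and Il1b and above it for Il6 and Tgfb1, and the departure was called for Cxcl2, Ccl3, Ccl4, Tnf, Osm and Il6.

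Of 19 receptor genes of the 8 cytokines, 4 were higher and 1 lower with vehicle against WT, where 33.3% of all tested genes were called in either direction. None was called by edgeR with combined therapy against vehicle, where 12.5% of all genes were called, although 2 had an unadjusted p under 0.05, and DESeq2 called 0. Their median log2 fold change was 0.11 and -0.01 in these comparisons, beside -0.09 and 0.04 over all tested genes. Ccr1, a receptor of CCL3, was at 2.04 ± 0.686 CPM in WT cells (SD, n = 3) and rose to 55.5 ± 8.99 CPM with vehicle (log2 fold change 4.76, SE 0.36, adjusted p = 4.16e-06). It stayed at 37.5 ± 18.5 CPM with combined therapy, above WT by 4.19 (adjusted p = 2.58e-05). Cxcr2, the receptor of CXCL2, rose from 3.59 ± 0.641 to 12.9 ± 8.39 CPM (1.84, adjusted p = 0.0157), and Cxcr1 was not called (0.805 and 0.659 CPM). Ackr1, an atypical receptor that binds chemokines without signaling, rose by 1.81 (adjusted p = 0.00533) at 0.760 against 2.69 CPM. Osmr, the specific chain of the OSM receptor, was at 2.21 ± 1.38 CPM in WT cells and fell to 0.0870 ± 0.0596 CPM with vehicle, a level at the counting limit (-4.62, adjusted p = 0.00507). The shared chain gp130 (Il6st) was at 58.6 ± 4.43 and 55.8 ± 4.80 CPM in these groups, Lifr at 2.31 and 2.52 CPM, and neither was called. Il6ra was at 14 ± 2.52 and 6.24 ± 0.653 CPM (-1.16, adjusted p = 0.0722). Il1r1 (88.7 and 56.4 CPM), Il1rap (31.6 and 38.9 CPM) and the decoy receptor Il1r2 (2.63 and 3.45 CPM) were not called, and nor were Tnfrsf1a (103 and 112 CPM) and Tnfrsf1b (113 and 115 CPM). Tgfbr1 and Tgfbr2, the signaling receptors of TGF-β1, were not called, while the co-receptor Tgfbr3 was higher with vehicle than in WT (0.94, adjusted p = 0.0379). Tgfbr3 was lower with AG221 than with vehicle (28.1 ± 11.8 and 92.6 ± 15.3 CPM, -1.72, adjusted p = 0.0458). Tgfbr1 (-1.07, adjusted p = 0.0604) and Tgfbr2 (-1.45, adjusted p = 0.0996) were not called there. With 1 library left out in turn, 0 to 4672 genes were called in this comparison, and AG221 A8 and A10 were low in GC-rich genes. Whether the Tgfbr3 call held in those fits is not given.

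**Figure D5:**
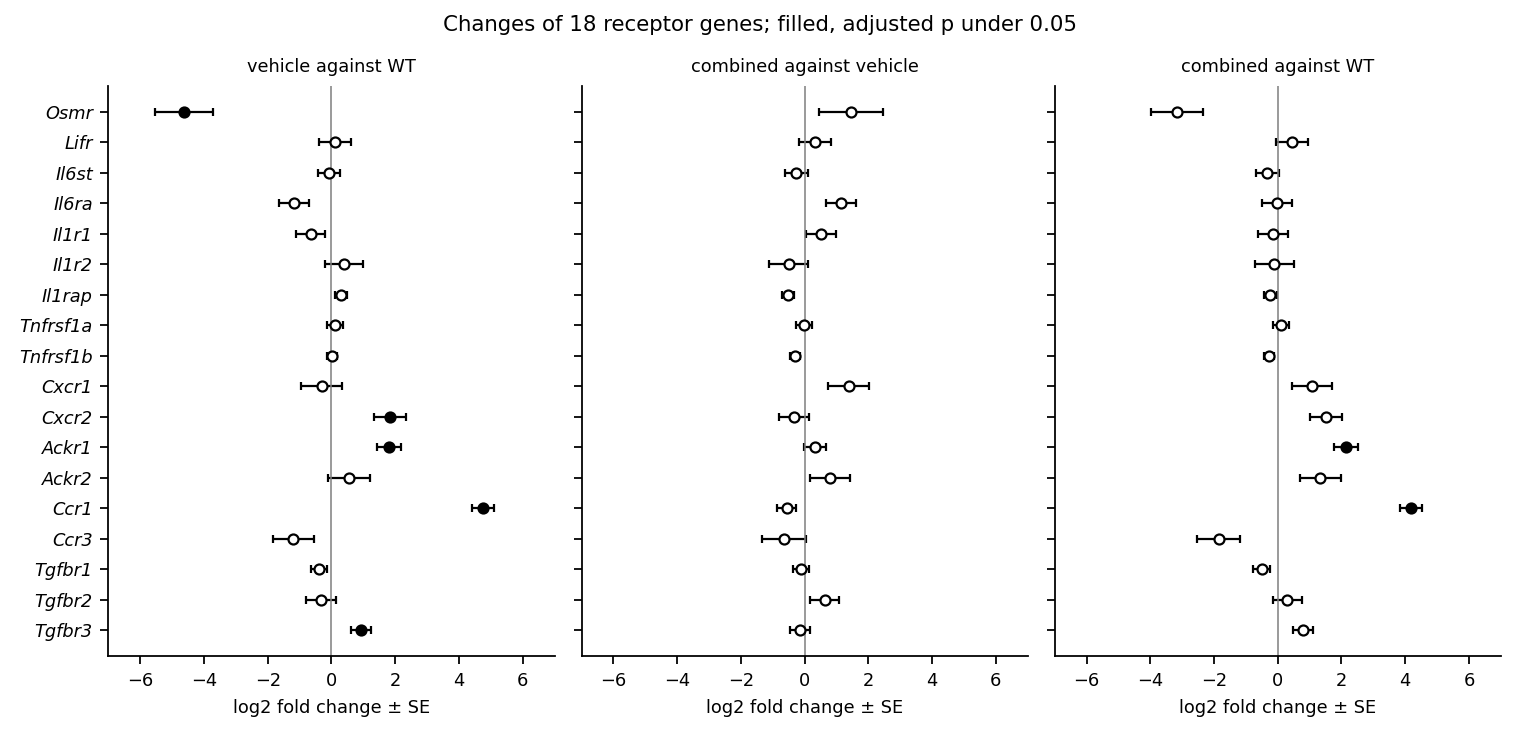
Log2 fold change and SE of 18 of the 19 receptor genes in 3 comparisons of 3 against 3 libraries, from the fit of all 15 libraries. Points are filled where the adjusted p was under 0.05 in edgeR's quasi-likelihood test. With vehicle against WT, Cxcr2, Ackr1, Ccr1 and Tgfbr3 are filled on the right and Osmr on the left, none is filled for combined therapy against vehicle, and Ackr1 and Ccr1 are filled for combined therapy against WT.

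Of 31 other ligands of the same families, 22 were tested (Il1a, Il33, Il11, Cntf, Lta, Cxcl3, Ccl7, Ccl12 and Ccl22 did not pass the filter). Of these 22, 4 were higher and 2 lower with vehicle against WT, and 1 was higher and 2 lower with combined therapy against vehicle, beside 33.3% and 12.5% of all tested genes called in either direction. Their median log2 fold change was -0.27 in the first comparison and -0.12 in the second. Cxcl10, an interferon-induced chemokine, rose from 2.35 ± 1.10 to 20.1 ± 8.45 CPM with vehicle (3.09, adjusted p = 0.00335) and was at 0.727 ± 0.520 CPM with combined therapy (-4.76 against vehicle, adjusted p = 0.000849). It was the only 1 of the 22 whose libraries named A all lay above those named B, a pattern of 4.43% of all tested genes. Its changes cannot be told apart from the letter. Lif, a gp130 ligand like OSM, rose by 1.92 (adjusted p = 0.0244) and was lower with combined therapy (-2.44, adjusted p = 0.0181). Ccl2, a monocyte chemokine, was higher with vehicle than in WT by 4.59 (adjusted p = 0.00373) and not called between combined therapy and vehicle (-0.93, adjusted p = 0.437), and with combined therapy it stayed above WT (3.66, adjusted p = 0.0341). Ccl9, which also binds CCR1, was at 105 ± 18.6 CPM in WT and 321 ± 52.2 CPM with vehicle (1.61, adjusted p = 0.00598). Clcf1, a further gp130 ligand, and Inhba, of the TGF-β family, were lower with vehicle (-1.79, adjusted p = 0.00546, and -2.37, adjusted p = 0.012). Ctf1 was higher with combined therapy than with vehicle at 2.29 ± 2.01 and 0.234 ± 0.143 CPM (3.26, adjusted p = 0.0301). With each monotherapy against vehicle none of the 22 was called by edgeR. For AG221, 3 of the 22 had an unadjusted p under 0.05 and DESeq2 called 1, and for ruxolitinib both numbers were 0.

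Of 15 genes that process or release these cytokines, 2 were higher and 5 lower with vehicle against WT, at a median of -0.88, and 1 was higher and 1 lower with combined therapy against vehicle, at a median of -0.15, beside 33.3% and 12.5% of all tested genes called. Nlrp3, the sensor of the inflammasome that activates caspase-1, rose from 0.572 ± 0.353 to 2.41 ± 0.322 CPM (2.06, adjusted p = 0.0257) and was lower with combined therapy (-2.35, adjusted p = 0.0316). Its libraries named A all lay above those named B, as in 4.43% of all tested genes, so these changes cannot be told apart from the letter. Of the 15 genes, 1 had the reverse pattern. Casp1, which cuts the IL-1β precursor, was at 54.6 ± 3.05 and 93.3 ± 16.4 CPM (0.77, adjusted p = 0.0219). Adam17, which sheds TNF, was at 128 ± 12.7 and 163 ± 21.1 CPM and was not called. The 5 lower genes act on latent TGF-β or the matrix that stores it. They were Itgav (-1.2, adjusted p = 0.00609), Thbs1 (-2.69, adjusted p = 0.00891), Itgb8 (-4.21, adjusted p = 0.0111), Ltbp4 (-1.90, adjusted p = 0.0122) and Ltbp3 (-1.66, adjusted p = 0.0461). Itgav was higher with combined therapy than with vehicle (1.51, adjusted p = 0.00314).

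Of 12 genes for the decay of cytokine transcripts, 3 were higher and 3 lower with vehicle against WT, and 4 were higher and 3 lower with combined therapy against vehicle, at medians of -0.20 and 0.31, beside the same 33.3% and 12.5% of all tested genes. Zfp36, encoding tristetraprolin, which binds ATTTA repeats of the kind printed for Tnf and Cxcl2, was at 194 ± 34.3 CPM in WT cells and rose to 2118 ± 838 CPM with vehicle (3.44, adjusted p = 4.42e-05) and was at 150.0 ± 55.2 CPM with combined therapy (-3.82, adjusted p = 3.69e-05). Zc3h12a, encoding the nuclease Regnase-1 that cleaves Il6 transcripts, was at 9.62 ± 2.25, 24.7 ± 5.49 and 8.47 ± 2.76 CPM in the same groups (1.35, adjusted p = 0.00468, and -1.54, adjusted p = 0.00333). Zfp36l1 took the same course (1.19, adjusted p = 0.0174, and -1.24, adjusted p = 0.0262). Elavl1, encoding HuR, which stabilizes such transcripts, moved the other way (-0.96, adjusted p = 0.0429, and 1.93, adjusted p = 0.00381), as did Zfp36l2 (-1.14, adjusted p = 0.0442, and 2.04, adjusted p = 0.00654) and N4bp1 (-0.50, adjusted p = 0.0231, and 1.09, adjusted p = 0.00125). Hnrnpd, encoding AUF1, was higher with combined therapy (1.2, adjusted p = 0.00272). Zfp36l2, of the same family as Zfp36, thus moved against it. In both comparisons the early response genes moved as well, 14 of 18 higher with vehicle against WT and 12 of 18 lower with combined therapy, and Zfp36 is itself known as one. Of the 12 decay genes, Zfp36 and Zc3h12a had all libraries named A above all named B, as had 4.43% of all tested genes, and 3 had the reverse. The changes of these genes cannot be told apart from the letter.

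The genes most like each cytokine gene were found by Pearson's r of log2 CPM over the 15 libraries, which share groups, letters and library properties, so the values are a description. Osm was most like Atf3 (r = 0.979), Ier3 (0.975) and Pmaip1 (0.967), and Cxcl2 most like Klf2 (0.980), Hspa5 (0.978) and Atf3 (0.977). Tnf was most like Ptgs2 (0.983), Gm13450 (0.978) and Neat1 (0.977). Ccl3 was most like Ccl4 (0.931), Hcar2 (0.925) and Tacc2 (0.903), and Ccl4 was most like Tnf (0.966), Hcar2 (0.966) and Zfp36 (0.961). Il1b was most like Selp (0.948), Man2b1 (0.943) and Cap1 (0.938). Il6 had no gene above Pde5a (0.831), and its r with Slc30a2 was 0.799. Tgfb1 was most like Mcm6 (0.992), Supv3l1 (0.991) and Ube2s (0.990). Among the 8 genes, r ran from 0.842 to 0.966 for Tnf with Cxcl2, Osm, Ccl3 and Ccl4, and from -0.402 to 0.128 for Tgfb1 with the other 7. Il6 reached 0.516 with Osm and -0.06 with Ccl3.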

How the data were processed

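CD45.2+ LSK cells were profiled by RNA sequencing after SMARTer amplification (paired-end reads). According to the submitters' processing notes and the study's methods, the authors aligned reads to mm10 (GRCm38) with STAR 2.5.1a and deposited raw counts per Ensembl gene; the strand setting and Ensembl release are not given in the sources used here. The authors also deposited a signal table, the counts divided by a DESeq2 (1.6.3) size factor per library, which was not used. Groups came from the sample labels.

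Symbols, coordinates and transcripts were taken from GENCODE mouse release 21, which left 647 of the 45232 IDs without a symbol, and promoters from RefSeq. The raw counts of all 15 libraries (18836625 to 32174287 per library) entered 1 quasi-likelihood fit of 5 groups without covariates (edgeR 4.0.16, R 4.3.3), with filterByExpr by group and TMM scaling; 17834 of the 37904 genes with a count were tested. Genes with a Benjamini-Hochberg adjusted p under 0.05 over all tested genes were called. The fit was tested on simulated counts, with 84% of genes changed 8-fold and 20.4% of those changed 2-fold recovered for vehicle against WT. The simulated spread followed the trend with level, without spreads particular to a gene. The GC-related and letter differences of these libraries were not simulated, so the shares hold for that simpler setting only.

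The 8 genes, the lists (ligands, receptors, processing, decay, early response and markers of 9 cell types) and the tests were chosen with earlier results of these data known. Beyond the 8 genes, the text names the 3 genes with the highest r to each, the receptors, and, for each other list of cytokine-related genes, up to 5 called genes with the smallest adjusted p in vehicle against WT and in combined therapy against vehicle; other genes named were chosen after their values were seen. The values of 3 genes that these rules or lists hold are not reported here, though the counts and sums over the lists include them. The alternatives were DESeq2 1.42.0, RLE and upper quartile scaling, no filter, only the groups compared, each library left out, a prior count of 0.5 or Spearman's rho for the likeness, and, chosen after seeing the data, GC content offsets and leaving out AG221 A8 and A10 and ruxolitinib A16.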

Additional observations from a re-analysis of the deposited data

Results flagged for a closer look

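For 6 of the 8 genes, the response to combined therapy differed from the sum of the responses to AG221 and to ruxolitinib, as tested by a contrast in the fit of all 15 libraries (quasi-likelihood test in edgeR, Benjamini-Hochberg adjusted). On the log2 scale the departure was -1.84 for Osm, -3.29 for Tnf, -6.46 for Cxcl2, -3.11 for Ccl3 and -3.28 for Ccl4, all lower than the sum, and 2.26 for Il6, higher than the sum. The adjusted p ran from 0.00368 for Cxcl2 to 0.0382 for Ccl3. Of all tested genes, 8.42% were called for such a departure in either direction, 2.82% below the sum and 5.6% above it. Leaving out a single library in turn gave calls for 3 to 7 of the 8 genes and for 44 to 6087 of all tested genes. The calls of Osm, Il6 and Ccl3 were each lost in several of these fits. All 3 combined libraries bear another letter than the vehicle and monotherapy libraries, from which the departure cannot be told apart. Chance sample outliers were not sought, since no group has more than 3 libraries.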

How the results depend on the processing

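Of 133 counts of members called under an alternative, 112 stayed within 1.5 times the count reported, and of 1063 fold changes of 1 gene 972 kept their direction and their side of the threshold, 48 lost a call, 17 gained one and 26 changed sign. With AG221 against vehicle, 1 gene was called, and 0 without a filter, with only the groups compared, and without AG221 A8 and A10 and ruxolitinib A16 (chosen after seeing the data); leaving out 1 library gave 0 to 3 (3 without AG221 A9: Osm, Il6 and Tgfb1, where 4672 genes in all were called, beside 176 with all libraries). With ruxolitinib against vehicle DESeq2 called 1. With combined therapy against WT, DESeq2 called 2, and leaving out 1 library gave 0 to 1. The departure was called for 2 genes without A8, A10 and A16, and for 3 to 7 with 1 library left out. The causes were not tested.

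Sign changes fell on values that were not called. Without A8, A10 and A16, AG221 against vehicle was -0.65 for Il1b and -0.12 for Tnf, ruxolitinib against vehicle was 0.084 for Il1b, 0.077 for Ccl4 and 0.11 for Tgfb1, combined therapy against ruxolitinib was -0.063 for Tgfb1 and AG221 against WT was 0.15 for Tgfb1. Upper quartile normalization gave 0.13 for Cxcl2 (AG221 against vehicle), -0.028 for Il6 (combined against AG221) and -0.18 for Tnf (combined against WT), and the last was -0.047 with only the groups compared and -0.0094 with GC offsets. With 1 library left out, AG221 against vehicle ran from -0.29 to 0.27 for Cxcl2 and -0.025 to 0.55 for Il1b. Ruxolitinib against vehicle ran from -0.85 to 0.089 for Il1b, -0.32 to 0.25 for Ccl4 and -0.64 to 0.13 for Tgfb1. Tgfb1 ran from -0.19 to 0.41 for combined therapy against vehicle, -0.069 to 0.73 against ruxolitinib and -0.16 to 0.63 for ruxolitinib against WT. Tnf ran from -0.19 to 0.40 for combined therapy against WT.

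Of the 3 genes most like each member, with a prior count of 0.5 there remained 2 for Il6, Tnf, Ccl3 and Ccl4, 1 for Cxcl2 and 3 for Osm, Il1b and Tgfb1; with Spearman's rho there remained 0 for Osm, Il1b, Tnf, Cxcl2 and Ccl4, 1 for Ccl3 and 2 for Il6 and Tgfb1. No paired analysis was possible because the groups share no replicate names. Depth limits Cxcl2 in WT and combined therapy (13 and 18 counts per group) and Il1b in WT (33).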
